A study of Homo sapiens with 16 samples.

Results

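The 10 enzymes followed here make purine and pyrimidine nucleotides from small precursors: PPAT, GART, PAICS, ADSL and ATIC of the route to inosine monophosphate (IMP), IMPDH1 and IMPDH2 of the branch to guanine nucleotides, and CAD, UMPS and CTPS of the pyrimidine route. They were chosen by symbol, and every row with one of these symbols was kept separate. This gave 11 rows of the 20589 on the array, because GART has 2 rows. MCF10A, a nontransformed human mammary epithelial cell line, was grown in serum-free medium with insulin and EGF and treated from 0 h with a small-molecule inhibitor of the HER2 kinase at 1 µM, whose name is on the axes of the plots by hour. RNA of parallel cultures was taken every 3 h up to 45 h and measured on 16 Illumina human Ref8v2 arrays, 1 at each time point, and the 0 h culture was untreated. All cultures came from 1 cell line, no time point had a replicate, and no untreated culture was followed over the same hours. Per the methods, cultures got fresh medium together with the inhibitor, so effects of the inhibitor, of fresh medium and of time in culture cannot be told apart.

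Purines are built on ribose phosphate in a chain of reactions that starts with PPAT and ends with ATIC, and IMP is then turned into either adenine or guanine nucleotides. Pyrimidines are built as a ring first, by CAD and DHODH, which UMPS joins to ribose phosphate to give UMP, and CTPS makes the cytosine nucleotide from the uracil one. Dividing cells need both routes to make RNA and DNA, and transcription of several of these enzymes is known to rise when cells are stimulated to grow.

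Values are quantile normalized log2 intensities after background correction. A probe was called above background on an array when its detection p was under 0.05, and rows above background on at least 3 of 16 arrays were tested, 11957 in all. That kept 10 of the 11 rows, of 9 genes. Detection covered 50.1 to 52.9% of all rows on each array, and the median unnormalized intensity of an array lay between 210 and 254. Markers of the cell type were present, with 7 of 10 epithelial markers above background on all 16 arrays, though KRT14 was so on only 1, and the brightest row of LAMB3, which appears to combine several probes, on none (its other row on 4). The remaining marker, TP73L, was above background on 10 arrays, none of them at 0 to 9 h, and at least 2.55-fold higher at 36 to 45 h than at 0 to 9 h (a bound, taken against the dimmest single probe detected on the early arrays, or TP73L itself where brighter). Of 12 markers of fibroblasts, leukocytes, endothelium and adipocytes, 9 were never above background, among them COL1A1, CD3E, CDH5 and ADIPOQ. The exceptions were PTPRC on 5 arrays, CD14 on 12 and PECAM1 on 15. The summed intensity of the 12 went from 610 to 638 at 0 to 9 h to between 711 and 779 at 12 to 21 h, 724 and 763 at 24 to 33 h, and 803 and 870 at 36 to 45 h, since CD14 and PECAM1 rose. The part of this in the results was not tested. In whole cultures, fewer cells making an RNA and less of it per cell cannot be told apart.

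Most of the enzymes shared 1 course: a rise that was steepest between 3 and 6 h, a plateau from 12 to 33 h and a fall at 36 h. All 10 tested rows varied with time on a spline with 3 degrees of freedom (limma's moderated F-test, adjusted p from 1.06e-06 for GART to 0.00203 for CAD), where 54.6% of all tested rows did. From 3 to 6 h all 10 rows stepped up, by 0.08 to 1.29 and by a median of 0.52 on the log2 scale, while the median over all tested rows was -0.01. For CAD and IMPDH2 this step followed a dip at 3 h and left them below their 0 h values. PAICS, ADSL and IMPDH2 had their largest step up between 9 and 12 h, and the dimmer row of GART between 6 and 9 h. From 33 to 36 h 9 of 10 stepped down, with a median of -0.34, while the median over all tested rows was -0.006. UMPS, which catalyses the last steps to UMP, was above background at 27 h only, with unnormalized intensities of 164 to 232, and was not tested.

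**Figure D1:**
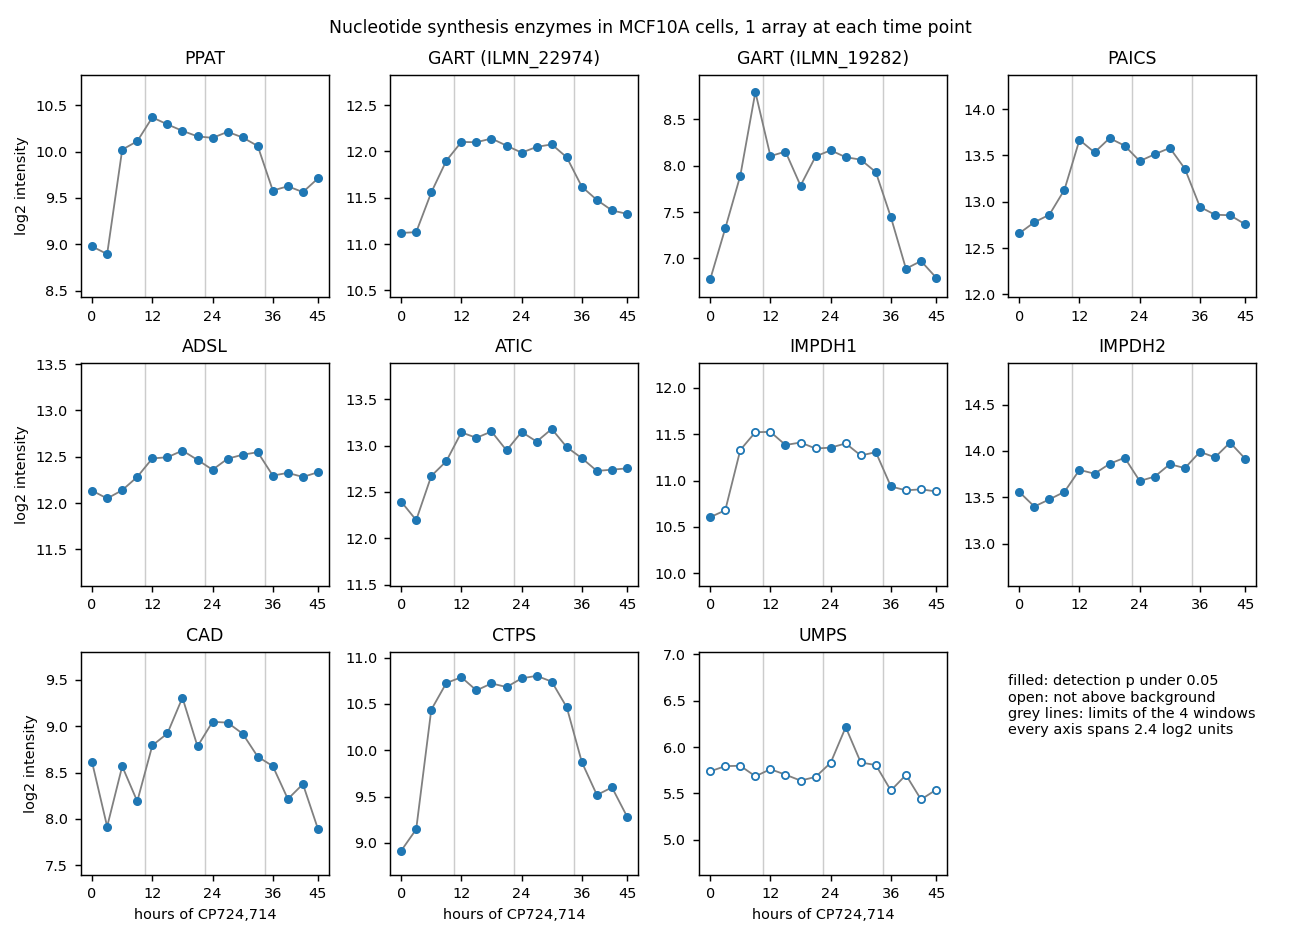
Normalized log2 intensity (vertical axes, each spanning the same number of log2 units) of the 11 rows against hours of treatment, 1 point per array. Filled points were above background, open points were not, and the IMPDH1 row, which appears to combine several probes, has a detection p that does not follow its brightness. GART (ILMN_22974), PAICS and ATIC sit high from 12 to 33 h and lower at both ends. PPAT, IMPDH1 and CTPS are within their 12 to 33 h range by 9 h and lower from 36 h. GART (ILMN_19282) peaks at 9 h, and IMPDH2 has its highest value at 42 h.

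To ask when the change took place, the arrays were taken in 4 windows of 4 consecutive time points. The arrays of 1 window are not replicates. Any change inside a window counts toward its spread, and for 9 of the 10 tested rows, IMPDH2 being the exception, the spread was largest at 0 to 9 h. The fit pools the spread of all 4 windows, so the SE of a late comparison also holds the change inside 0 to 9 h. At 12 to 21 h, 8 of the 10 rows were higher than at 0 to 9 h and 0 were lower (limma, adjusted p under 0.05), against 15.1% higher and 14.4% lower over all tested rows. No row of the 10 was lower at an unadjusted p under 0.05 either, where 19.3% of all rows were. The median change of the 10 rows was 0.59, and that of all tested rows was -0.0006. Between the 2 middle windows 0 were higher and 0 lower, with 0.00% and 0.0251% over all rows. None of the 10 passed an unadjusted p under 0.05 there, while 308 rows of the array were higher (2.58%) and 277 lower (2.32%). At 36 to 45 h against 24 to 33 h, 8 rows were lower and 1 was higher, against 18.7% lower and 19.3% higher over all tested rows, with a median change of -0.54. All 10 rows had windows that did not overlap in this comparison, which 44.79% of all tested rows had as well. From the first to the last window 1 of the 10 rows was higher and 0 were lower, with 16.2% and 15.0% over all rows, and at an unadjusted p under 0.05 there were 3 higher and 1 lower, against 21.1% and 20.9% over all rows. Scaling each array to its median instead moved the share of higher rows among all rows called from 51.2 to 73.2% in the first of these comparisons, from 50.8 to 36.9% at 36 to 45 h against 24 to 33 h, and from 51.8 to 73.1% for the last against the first window. The counts of the 10 rows were then 9 higher, 9 lower with 0 higher, and 3 higher. Without the 39 h array the 8 lower rows became 5. The 1 row higher in the last than the first window became 2 without the 6 h or the 24 h array and 3 without the 9 h array, and the 0 lower rows became 1 without the 0 h array.

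**Figure D2:**
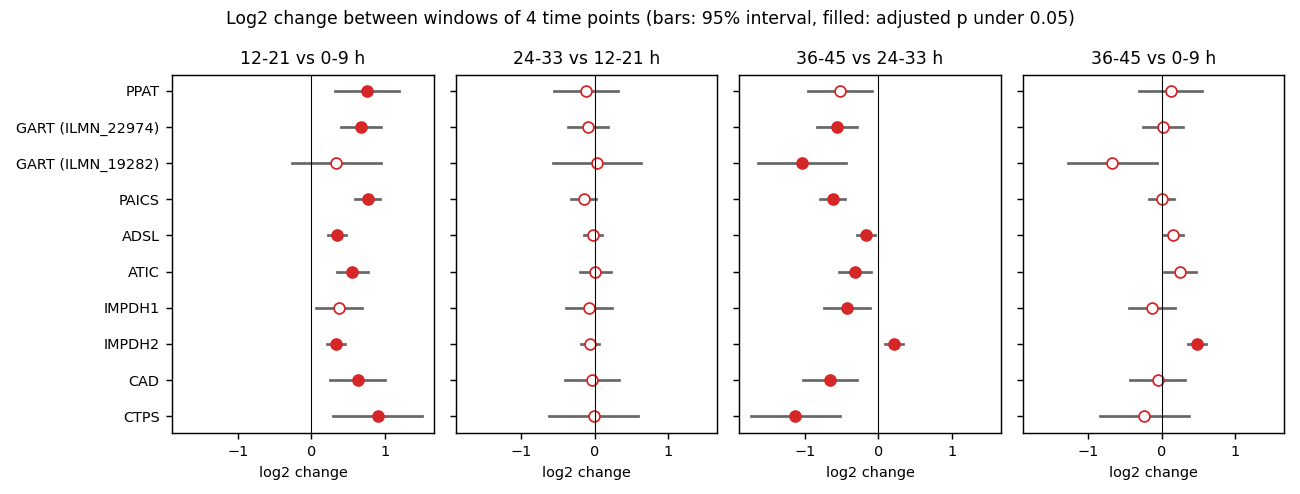
Log2 change (horizontal axes) of the 10 tested rows between windows of 4 time points, with the 95% interval of the fit as bars and filled points for an adjusted p under 0.05. All points lie right of 0 at 12 to 21 h against 0 to 9 h, and IMPDH2 alone lies right of 0 at 36 to 45 h against 24 to 33 h.

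The first step of purine synthesis is taken by PPAT, which commits phosphoribosyl pyrophosphate (PRPP) to the route and is inhibited by its end products. Its log2 intensity was 8.98, 8.89, 10.02 and 10.11 at 0, 3, 6 and 9 h, then 10.37, 10.29, 10.22 and 10.16 up to 21 h. It stood at 10.15, 10.21, 10.15 and 10.06 from 24 to 33 h and at 9.58, 9.62, 9.56 and 9.71 from 36 to 45 h. Between 3 and 6 h it stepped up by 1.13, and the highest value, at 12 h, was 2.78 times the lowest on the linear scale. PPAT was higher at 12 to 21 h than at 0 to 9 h by 0.76 (SE 0.21, adjusted p = 0.00983 from limma). The later difference was -0.52 (adjusted p = 0.0539), without overlap of the 2 windows. That difference passed the threshold without any one of the 0, 3, 6 or 9 h arrays (adjusted p = 0.0188 to 0.0321), and the last 4 values all stayed above those of 0 and 3 h.

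GART carries several middle steps of the purine route in 1 polypeptide. The brighter of its rows, ILMN_22974, lay between 11.12 and 11.90 at 0 to 9 h, between 12.06 and 12.14 at 12 to 21 h, between 11.94 and 12.08 at 24 to 33 h and between 11.33 and 11.62 at 36 to 45 h. The rise to 12 to 21 h was 0.67 (SE 0.13, adjusted p = 0.000817 from limma), and the later fall was 0.57 (SE 0.13, adjusted p = 0.00198). The second row, ILMN_19282, appears to combine several probes and had another early course: it was at 6.77, 7.32, 7.89 and 8.79 at 0, 3, 6 and 9 h and peaked at 9 h, above all 4 values of the next window. Its difference at 12 to 21 h was therefore 0.34 with a wide error (SE 0.29, adjusted p = 0.410), and 0.71 without the 9 h array (adjusted p = 0.0130). The 2 rows had the same direction later, when ILMN_19282 fell by 1.04 (SE 0.29, adjusted p = 0.00808). From the first to the last window ILMN_19282 differed by -0.67 (adjusted p = 0.0828), or by -0.98 without the 0 h array (adjusted p = 0.00392).

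PAICS, which follows GART in the route with 2 activities, was at 12.66, 12.78, 12.86 and 13.13 at 0 to 9 h and at 13.67, 13.53, 13.69 and 13.60 at 12 to 21 h. Its largest step up, of 0.54, came between 9 and 12 h, later than that of PPAT. From 24 to 33 h it was at 13.44, 13.51, 13.58 and 13.36, and from 36 to 45 h at 12.94, 12.86, 12.85 and 12.76. The rise was 0.77 (SE 0.08, adjusted p = 4.8e-06 from limma) and the fall 0.62 (SE 0.08, adjusted p = 1.48e-05). Neither change lost its call when any one array was left out. The middle windows differed by -0.15, with a 95% interval from -0.32 to 0.02, and the last window differed from the first by -0.003 (95% interval -0.17 to 0.17).

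PPAT and PAICS are neighbours on chromosome 4 and, from the starts used here, are transcribed away from each other. RefSeq (GRCh38.p14) places the PPAT start at 56435615 on the minus strand and a PAICS start at 56435752 on the plus strand. Other PAICS starts are at 56410507 and 56436260, so the annotated PAICS gene spans the PPAT start. The stretch between the starts at 56435615 and 56435752, chr4:56435616-56435751 on the plus strand, is shown because it lies before both of these, with the GC box GGGCGG in capitals (both strands searched):
PPAT-PAICS: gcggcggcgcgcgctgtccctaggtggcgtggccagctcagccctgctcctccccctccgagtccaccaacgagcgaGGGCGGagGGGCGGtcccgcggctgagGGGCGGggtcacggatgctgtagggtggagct
An E-box, CACGTG, the palindrome bound by MYC and related factors, lies outside this stretch, 40 bases after the PAICS start at 56435752 and 177 before the PPAT start. It is in capitals in chr4:56435781-56435808, plus strand:
PPAT-PAICS E-box: tgtatttgctgCACGTGgaaatctccgt
ATIC has the same letters at both sides of its start on chromosome 2, at 29 bases after it and at 46 before it, the latter in capitals in chr2:215311959-215312058, plus strand:
ATIC: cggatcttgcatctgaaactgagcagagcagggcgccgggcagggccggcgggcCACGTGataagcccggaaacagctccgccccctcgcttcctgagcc
Windows of 250 bases before to 50 after a start were at hand for 8 of the 10 genes (13 windows, CTPS under its current symbol CTPS1), and not for ADSL and IMPDH2. The E-box was in 3 of the 13 windows, of PPAT, PAICS and ATIC, and in 7.26% of 35116 human windows of the same length. Those of PPAT and PAICS overlap and hold the same E-box and the same GC boxes, so these sites are counted in both. The GC box was in 8 of the 13, of 7 genes, and in 45.0% of all windows. CCAAT, searched on both strands, was in 4 of the 13, of GART and CAD, and in 34.6% of all. Nearly identical windows of GART share these sites, so the 4 are not independent. GCATGCGC, the core of the NRF1 motif, was in 1 of the 13, of CTPS, and in 3.05% of all. A match says that the letters are there, and binding was not measured.

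ADSL and ATIC, the last enzymes of the IMP route, had ratios of highest to lowest value of 1.43 and 1.98. ADSL, which splits off fumarate here and again on the way to AMP, lay between 12.05 and 12.28 at 0 to 9 h, 12.47 and 12.57 at 12 to 21 h, 12.36 and 12.55 at 24 to 33 h, and 12.28 and 12.33 at 36 to 45 h. It rose by 0.35 (SE 0.06, adjusted p = 0.000334 from limma) and later fell by 0.17 (SE 0.06, adjusted p = 0.0333), and the fall lost its call when any one of the 27, 30, 33, 36, 39 or 42 h arrays was left out (adjusted p = 0.0563 to 0.0937). Its last window was above its first by 0.16 (adjusted p = 0.0518), which passed without the 9 h or the 24 h array (adjusted p = 0.0126 and 0.0439). ATIC, which closes the purine ring, ran from 12.40, 12.20, 12.67 and 12.83 to a range of 12.95 to 13.18 at 12 to 33 h, and ended at 12.86, 12.73, 12.74 and 12.75. It was higher by 0.56 at 12 to 21 h (SE 0.10, adjusted p = 0.000598), and it fell by 0.32 in the last window (SE 0.10, adjusted p = 0.0199), a call lost without the 24, 30 or 39 h array (adjusted p = 0.0504 to 0.0600). The last window of ATIC was above its first by 0.25 (adjusted p = 0.0724), and this passed without the 6 h or the 9 h array (adjusted p = 0.0497 and 0.00600).

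IMP dehydrogenase, the rate-limiting enzyme of guanine nucleotide synthesis, has 2 forms encoded by separate genes, and these moved apart at the end of the series. IMPDH1 was at 10.61, 10.68, 11.33 and 11.52 from 0 to 9 h, at 11.53, 11.38, 11.41 and 11.35 from 12 to 21 h, at 11.36, 11.40, 11.27 and 11.31 from 24 to 33 h, and at 10.94, 10.90, 10.91 and 10.88 from 36 to 45 h. All its late values lay below those of 6 to 33 h. The IMPDH1 row also appears to combine several probes: its detection p was under 0.05 on 5 arrays only, although its unnormalized intensity was 1618 to 3194. IMPDH2 was at 13.56, 13.40, 13.48 and 13.56, then at 13.80, 13.75, 13.86 and 13.93, at 13.68, 13.72, 13.86 and 13.81, and at 13.99, 13.93, 14.09 and 13.92. Its highest value came at 42 h.

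IMPDH1 fell by 0.43 at 36 to 45 h against 24 to 33 h (SE 0.15, adjusted p = 0.0291 from limma), and lost that call without the 24, 27, 39, 42 or 45 h array (adjusted p = 0.0566 to 0.0708). This SE pools all windows, and IMPDH1 had SDs of 0.46, 0.08, 0.06 and 0.02 in the windows from first to last. Its earlier difference of 0.38 missed the threshold (adjusted p = 0.0605) and passed it without the 6 h or the 9 h array (adjusted p = 0.0254 and 0.00210). IMPDH2 rose by 0.34 at 12 to 21 h (SE 0.06, adjusted p = 0.000383) and was higher again at 36 to 45 h by 0.21 (SE 0.06, adjusted p = 0.00708), although with each array scaled to its median the second value was 0.05 (adjusted p = 0.599). It was the only one of the 10 rows called between the first and the last window, by 0.48 (SE 0.06, adjusted p = 9.1e-06), and this call held with every single array left out, at 0.45 to 0.51.

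The change of IMPDH2 from 24 to 33 h to 36 to 45 h was set against that of each of the other 9 rows, and that of CTPS2 against CTPS, a choice made after the values were seen. IMPDH2 exceeded IMPDH1 by 0.64, with SDs of the paired difference of 0.13 and 0.07 over the 4 arrays of each window. Against the 9 rows the difference ran from 0.38 for ADSL to 1.34 for CTPS. These differences are a description with no test, since the pairs were picked for their opposite directions. Without background correction, with a larger offset, with median scaling or with cyclic loess, the smallest of the 9 differences lay between 0.38 and 0.46.

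**Figure D3:**
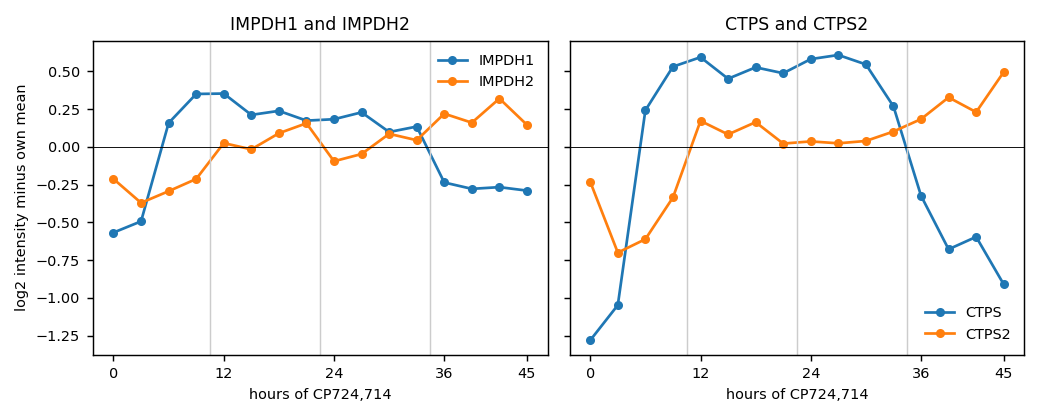
Log2 intensity minus the mean of the same row over its 16 arrays (vertical axis) against hours of treatment, for IMPDH1 and IMPDH2 (left) and CTPS and CTPS2 (right), 1 point per array. IMPDH1 and CTPS drop below their means from 36 h, whereas IMPDH2 and CTPS2 lie above theirs.

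In the pyrimidine route, CAD holds the first activities in 1 protein. It was at 8.61, 7.92, 8.57 and 8.19 from 0 to 9 h, at 8.79, 8.92, 9.31 and 8.78 from 12 to 21 h, at 9.05, 9.04, 8.92 and 8.67 from 24 to 33 h, and at 8.57, 8.21, 8.38 and 7.89 from 36 to 45 h. The 0 h value of CAD was above those of 3 and 9 h, so its first window did not rise steadily. CAD rose by 0.63 (SE 0.17, adjusted p = 0.0115 from limma) and fell by 0.66 (SE 0.17, adjusted p = 0.00650). The last window differed from the first by -0.06 (95% interval -0.43 to 0.31).

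CTPS, which makes CTP from UTP and ammonia of glutamine, had the largest single step. It was at 8.91 and 9.15 at 0 and 3 h, then at 10.44 and 10.73 at 6 and 9 h. It stayed at 10.79, 10.65, 10.72 and 10.68 up to 21 h and at 10.78, 10.80, 10.74 and 10.46 up to 33 h, and dropped to 9.87, 9.52, 9.60 and 9.28. Its highest value was 3.70 times its lowest. The rise of 0.90 at 12 to 21 h (SE 0.29, adjusted p = 0.0243 from limma) was lost without the 0, 3, 12 or 18 h array (adjusted p = 0.0503 to 0.0940). The fall of 1.13 (SE 0.29, adjusted p = 0.00469), to less than the level of 6 h on every array, held with each array left out. CTPS2, the second gene for this enzyme, had another course: it was at 9.11, 8.64, 8.73 and 9.01 at 0 to 9 h, between 9.36 and 9.51 at 12 to 33 h, and at 9.53, 9.67, 9.57 and 9.84 from 36 to 45 h. Between the last 2 windows CTPS2 differed by 0.26 (adjusted p = 0.0665), which lay 1.39 above the change of CTPS, again as a description. From the first to the last window it was higher by 0.78 (SE 0.11, adjusted p = 3.6e-05).

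The comparison of first and last windows mixes cultures from before and after the early step. With 0 and 3 h set against 42 and 45 h, 6 of the 10 rows were higher, against 15.9% of all tested rows and against 1 of the 10 for the whole windows. PPAT was then higher by 0.70 (limma, adjusted p = 8.44e-05), ATIC by 0.45 (adjusted p = 0.00125), CTPS by 0.41 (adjusted p = 0.0444), IMPDH1 by 0.25 (adjusted p = 0.0438), ADSL by 0.21 (adjusted p = 0.0488) and IMPDH2 by 0.52. PAICS, at 0.09 (adjusted p = 0.519), was not called, and neither were CAD and both rows of GART. The early step was seen in these same rows, and every tested row but CAD had its lowest value at 0 or 3 h. The count and the p-values of this split therefore describe the courses and are no independent test.

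As a description of how alike the courses were, each row was correlated over the 16 arrays with the mean of the other genes. The coefficient lay between 0.68 and 0.97 for 9 rows and was 0.24 for IMPDH2. Over 36 pairs of main probes the median was 0.80, the highest 0.97 between IMPDH1 and CTPS, and the lowest -0.001 between IMPDH1 and IMPDH2. Arrays follow each other in time, so they are not independent points. Among 8627 other probes above background on all 16 arrays, 2.09% had a coefficient above 0.9 with the mean course of the enzymes. The 5 highest were BOP1, which acts in ribosome assembly (0.99), hCAP-D3, a condensin subunit (0.99), PRMT7, an arginine methyltransferase (0.98), PFAS (0.98) and GALNTL4 (0.97). PFAS catalyses a purine step between those of GART and was not among the 10 chosen enzymes. It rose by 1.00 at 12 to 21 h (SE 0.19, adjusted p = 0.000915 from limma) and fell by 0.82 at 36 to 45 h (SE 0.19, adjusted p = 0.00266).

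The other genes of nucleotide metabolism were described by list, each by its brightest probe. Over all tested rows 15.1% were higher and 14.4% lower at 12 to 21 h against 0 to 9 h. At 36 to 45 h against 24 to 33 h the shares were 19.3% higher and 18.7% lower. Among those for PRPP supply and the remaining purine steps, 7 of 8 were tested. Of these, 4 were higher and 0 lower at 12 to 21 h against 0 to 9 h, and 3 were lower and 1 higher at 36 to 45 h against 24 to 33 h, where the medians were 0.35 and -0.34. PRPS1, which makes PRPP, rose by 0.35 and then fell by 0.99 (SE 0.09, adjusted p = 5.3e-07), ending 0.57 below its first window. PRPSAP1, a protein bound to that enzyme, was higher by 0.32 at the end, and PRPSAP2 was lower by 0.24 in the last than in the first window (adjusted p = 0.0463). Of 5 genes for other pyrimidine steps, 2 were higher and 1 lower at 12 to 21 h, and 2 were lower at 36 to 45 h. Among them NME1, a nucleoside diphosphate kinase with a close paralog in NME2, fell by 0.97 at the end. DHODH, the enzyme between CAD and UMPS, was the other lower gene, by 0.42 (adjusted p = 0.00926 from limma). It was above background on 7 arrays only, with 1 at 24 to 33 h and 1 at 36 to 45 h, so this call rests on values near background. CMPK, the UMP-CMP kinase, was above its first window by 0.26 in the last.

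**Figure D4:**
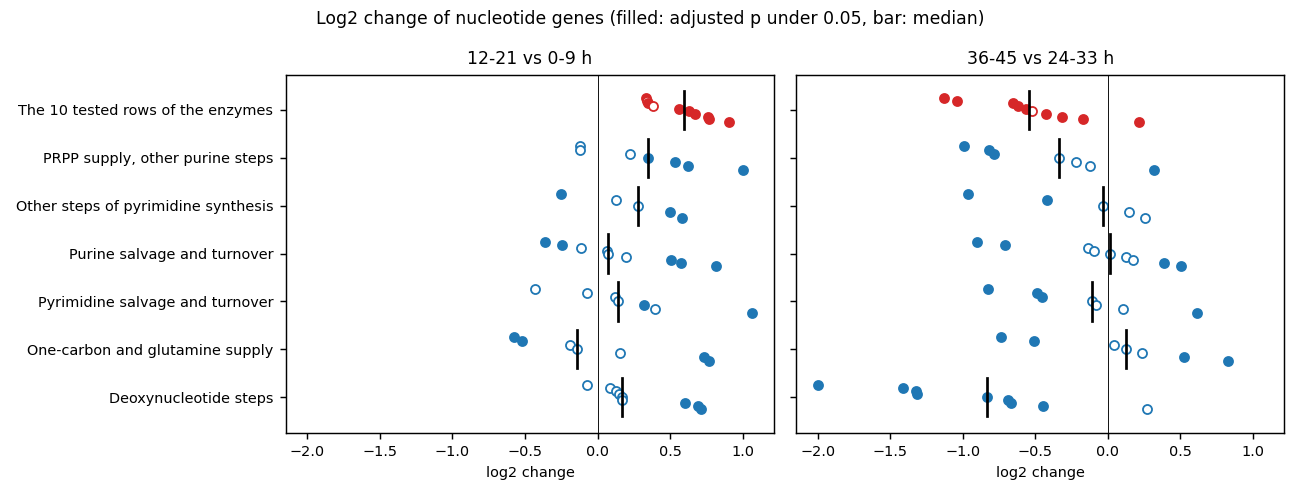
Log2 change (horizontal axes) of the 10 tested rows of the enzymes (red) and of each tested gene of 6 other lists of nucleotide metabolism (blue), with filled points for an adjusted p under 0.05 and a bar at the median of each list. The enzyme rows have the highest median at 12 to 21 h against 0 to 9 h, and the deoxynucleotide genes the lowest at 36 to 45 h against 24 to 33 h.

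Salvage and supply genes had calls in both directions, and so did all tested rows (15.1% higher and 14.4% lower early, 19.3% and 18.7% late). Whether the counts of these lists differ from those shares was not tested. Of 9 tested genes for purine salvage and turnover, 3 were higher and 2 lower in the earlier comparison, and 2 were higher and 2 lower in the later one. From the first to the last window ADA, adenosine deaminase, rose by 1.01 (SE 0.24, adjusted p = 0.00400 from limma), XDH, which makes uric acid, rose by 0.59, and NP, purine nucleoside phosphorylase, fell by 0.91. ADA already lay between 7.95 and 9.49 within 0 to 9 h, and it differed by 0.12 at 36 to 45 h against 24 to 33 h (adjusted p = 0.733 from limma). Of 7 genes for pyrimidine salvage and turnover, 2 were higher and 0 lower in the earlier comparison, and 1 was higher and 3 lower in the later one. Between the first and last windows DPYD, which degrades uracil, rose by 0.69 (and fell by 0.46 at 36 to 45 h against 24 to 33 h), UCKL1 rose by 0.34, and the brighter row of UPP1, uridine phosphorylase, fell by 0.63. That UPP1 row was above background on 9 arrays only, with 1 at 36 to 45 h, although its mean there was 12.18. The other UPP1 row was above background on 0 arrays. Of 7 genes for one-carbon and glutamine supply, 2 were higher and 2 lower in each comparison, and MTHFD1L, a mitochondrial folate enzyme, was higher by 0.26 in the last than in the first window although it fell by 0.51 at 36 to 45 h against 24 to 33 h.

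Genes of the deoxynucleotide steps, which supply DNA precursors, had more calls late than early. At 12 to 21 h, 3 of the 9 were higher with a median of 0.17, against 15.1% of all tested rows. At 36 to 45 h 8 were lower with a median of -0.83, against 18.7% of all. In the last window 6 were below the first and 1 was above it, against 15.0% and 16.2% of all. RRM2, the regulated subunit of ribonucleotide reductase, fell at 36 to 45 h from a mean of 8.94 to one of 6.95 (adjusted p = 4e-06 from limma) and ended 1.35 below its first window. TK1, thymidine kinase, also ended 1.35 below, and DTYMK, the next kinase to dTTP, 1.06 below. Whether this balance differs from that of the 10 enzymes was not tested.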

How the data were processed

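The authors deposited linear intensity values of Illumina human Ref8v2 arrays, without normalization across arrays. Each row also has a detection p-value per array in the deposited table. The summary software is not given in the sources used here, and the quantile normalization in the study's methods was not applied to these values. In R 4.3.3 with limma 3.58.1, intensities were corrected by normexp (offset 16), with the negative control level inferred from detection p-values, then quantile normalized and log2 transformed. The offset understates changes of dim rows. Rows whose detection p-values are multiples of 1 in 708 (tolerance 0.001) on all arrays were taken as single probes (19092), and the other 1497 as rows that appear to combine several probes, which is inferred from these steps alone. Only the single probes gave the background estimate.

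Time was tested with a natural cubic spline (3 degrees of freedom, 12 residual) and by contrasts among 4 windows, with an intensity trend and Benjamini-Hochberg adjustment over 11957 rows. On simulated data with 200 of 11957 rows moved by 1 log2 unit at 12 to 33 h, 94.5% were recovered at 12 to 21 against 0 to 9 h, 95.0% at 36 to 45 against 24 to 33 h and 60.5% by the spline. False calls numbered 8, 17 and 9. The simulated rows had independent noise and no drift inside a window, so these shares do not hold for rows that change within 0 to 9 h. With 1 array per time point, the number of arrays limits the precision. The 10 enzymes, the windows and the gene lists were chosen with earlier results of these data known. From each list up to 3 called genes with the largest change from the first to the last window were named, and the 5 probes most like the enzymes. Other named genes, and the arrays or settings singled out, were chosen after their values were seen. Promoter windows and gene positions are from RefSeq (GRCh38.p14). Figures were drawn with matplotlib 3.10.9.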

Additional observations from a re-analysis of the deposited data

How the results depend on the processing

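All 10 tested rows varied with time under each setting of the spline that kept them, and 1 did (IMPDH2) with a straight line. Of the counts, those of 12 to 21 h against 0 to 9 h stayed within 1.5 times under each setting. With each array scaled to its median, 3 were higher in the last than in the first window and 0 were higher at 36 to 45 h than at 24 to 33 h. With rows above background on all 16 arrays, 2 were higher in the last window, and with 0 and 3 h against 42 and 45 h, 6 were. At an adjusted p under 0.01, 5 were lower at 36 to 45 h than at 24 to 33 h. With arrays left out in turn, the higher rows in the last against the first window numbered 1 to 3, the lower 0 to 1, and those lower at 36 to 45 h than at 24 to 33 h 5 to 9.

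Differences of the last from the first window that changed sign were not called in the reported fit, where the largest was -0.238, for CTPS. Median scaling gave PAICS 0.108, IMPDH1 0.0202 and CAD 0.0968, and cyclic loess gave PAICS 0.00218. With 0 and 3 h against 42 and 45 h, PAICS was at 0.0867, IMPDH1 at 0.252 and CTPS at 0.411, and IMPDH1 and CTPS were called higher. Removing the step from 21 to 24 h gave PAICS 0.148. Leaving out single arrays gave PPAT -0.0834 to 0.323, GART (ILMN_22974) -0.0825 to 0.177, PAICS -0.0686 to 0.0880, IMPDH1 -0.273 to 0.0332, CAD -0.194 to 0.0651 and CTPS -0.535 to 0.0685. The cause was not tested. Fitting only the 8 arrays of a comparison left PPAT (adjusted p = 0.0749 from limma) and CTPS (adjusted p = 0.107) uncalled at 12 to 21 h against 0 to 9 h. The late fall of PPAT, not called in the reported fit, was called with only the 8 arrays of its comparison (adjusted p = 2.98e-05), with median scaling (adjusted p = 0.0265), without background correction (adjusted p = 0.0441) and with rows above background on all 16 arrays (adjusted p = 0.0484). ADSL lost its late call without the filter on detection (adjusted p = 0.0700) and without the intensity trend (adjusted p = 0.0786). A block for the chip was not run, since no chip is named. No paired analysis was possible because each group has 1 array. With 1 array per time point, neither the spread between cultures nor an effect of the array can be separated from time.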
